A study of Mus musculus with 4 samples.

Results

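The genes described are those of potassium channels, taken as the probes whose accession mapped to a mouse symbol made of Kcn, 1 or more letters and a number. The rule found 78 genes with 104 probes, of 32970 genes with 41174 probes on the arrays, and 1 further gene of this name pattern is not analysed here. A further 13 RefSeq genes that fit the pattern had no probe named here. The animals were K19-Wnt1/C2mE mice at 30 weeks of age with gastric tumours. Their transgenes are driven by the keratin 19 promoter and make the stomach epithelium express Wnt1 together with Ptgs2 and the prostaglandin E synthase Ptges. Tumours were digested, cells with lineage markers were removed, and the lineage-negative rest was sorted into CD44+ and CD44- cells, with 2 one-colour arrays each. Both groups carry the same transgenes and come from tumour, so neither is normal mucosa, and the labels do not say whether replicates came from separate or pooled mice. A p-value here therefore rests on how far the arrays of a group lie apart, and that spread may be technical. The test used, limma, also draws each gene's variance toward that of all genes, with 5.99 prior against 2 residual degrees of freedom. A standard error (SE) given below is thus not the scatter of that gene's arrays alone.

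Potassium channels let potassium ions leave cells along their gradient, which sets the membrane voltage. Excitable cells, hormone-secreting cells included, use voltage-gated, calcium-activated and ATP-sensitive channels to shape electrical activity. Epithelia use others to recycle potassium, so that chloride, acid or bicarbonate can be secreted. A channel is built of pore-forming subunits, and small auxiliary subunits change its opening. KCNQ1 is the pore that illustrates this in the gut. With KCNE3 it is open at rest in the basolateral membrane of secretory epithelium and supports chloride secretion through CFTR, whereas with KCNE2 it returns potassium to the lumen of the acid-secreting parietal cell.

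The array gives a fluorescence intensity for each probe. Levels below are log2 processed signals relative to each array's 75th percentile, so 0 marks that percentile, and a difference is CD44+ minus CD44- on this scale. Processed signal at the 75th percentile was 244 for CD44+ replicate 1 and 493 for CD44+ replicate 2, against 406 and 527 for the CD44- replicates. The share of gene spots well above background was 53.1% and 65.6% in CD44+ cells, against 66.6% and 69.6% in CD44- cells. The first CD44+ array was thus the dimmest, and precision is limited by having 2 arrays per group. In sorted cells, fewer cells of a type and less RNA per cell cannot be told apart. All 5 epithelial markers were well above background on all 4 arrays. The CD44- arrays carried more signal of endocrine, stromal, squamous and tuft cell markers. More signal of mucous neck and mast cell markers was on the CD44+ arrays, and all these values are given below.

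Auxiliary KCNE genes lay on both sides among potassium channel genes. Kcne3 had 3.60-fold more signal in CD44+ than in CD44- cells, its pore partner Kcnq1 2.50-fold more, and Kcne2, the other partner, stayed below the mark for signal well above background in CD44+ cells. None of these 3 passed limma's test over all genes. The gene that passed was Kcnj16, an inward rectifier subunit, lower in CD44+ cells. Because Kcne3 and Kcne2 encode related subunits of the same channel and differed in opposite directions, the 300 bases around each start listed by RefSeq for them (GRCm38.p6) are shown, from 250 before to 50 after the start. Capitals mark matches to a TATA box (TATAAA), a GC box (GGGCGG) or the TCF/LEF core (TCAAAG), searched on both strands.
Kcne3 first start, chr7:100176420-100176719, plus strand: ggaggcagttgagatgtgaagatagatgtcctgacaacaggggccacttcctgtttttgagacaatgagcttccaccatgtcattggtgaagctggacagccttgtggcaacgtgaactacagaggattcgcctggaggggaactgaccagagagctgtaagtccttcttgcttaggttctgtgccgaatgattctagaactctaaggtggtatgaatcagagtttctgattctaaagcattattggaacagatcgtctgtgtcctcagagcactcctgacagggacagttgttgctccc
Kcne3 second start, chr7:100178433-100178732, plus strand: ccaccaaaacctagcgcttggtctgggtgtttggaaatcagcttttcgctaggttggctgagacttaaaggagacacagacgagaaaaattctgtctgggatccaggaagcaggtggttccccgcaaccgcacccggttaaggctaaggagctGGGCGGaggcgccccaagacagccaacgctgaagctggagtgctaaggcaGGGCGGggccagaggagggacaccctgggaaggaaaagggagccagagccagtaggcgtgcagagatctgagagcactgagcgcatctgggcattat
Kcne2 first start, chr16:92292139-92292438, plus strand: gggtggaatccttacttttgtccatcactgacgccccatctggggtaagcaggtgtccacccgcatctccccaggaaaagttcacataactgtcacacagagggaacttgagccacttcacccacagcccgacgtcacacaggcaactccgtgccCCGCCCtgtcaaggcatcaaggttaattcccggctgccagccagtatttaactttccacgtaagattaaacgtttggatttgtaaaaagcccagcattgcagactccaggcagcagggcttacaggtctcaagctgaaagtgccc
Kcne2 second start, chr16:92295366-92295665, plus strand: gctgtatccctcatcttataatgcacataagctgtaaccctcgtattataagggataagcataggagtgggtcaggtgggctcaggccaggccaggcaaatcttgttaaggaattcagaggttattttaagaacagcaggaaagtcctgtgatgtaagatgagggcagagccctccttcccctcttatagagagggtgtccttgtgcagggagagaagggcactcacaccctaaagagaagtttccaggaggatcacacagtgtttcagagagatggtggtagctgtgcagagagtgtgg

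The second Kcne3 promoter held 2 GC boxes and the first Kcne2 promoter held 1 on the other strand, while the remaining 2 windows held none of the 3 motifs. Of 32851 promoters of this length, 35.7% held a GC box, 13.6% a TATA box and 16.0% a TCF/LEF core. Of 82 promoters listed for 57 of the potassium channel genes, 51.2%, 4.88% and 8.54% did, in the same order. A match is a description of the letters and says nothing of binding.

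Of the 78 genes, 37 had a probe that was well above background on both CD44+ or both CD44- arrays, and these were tested. The other 41 were not, of which 28 were not well above background on any array with any probe. All 37 passed the filter through the CD44- arrays, where each was well above background on both. On the CD44+ side 20 were well above background on both arrays, 11 on 1 array and 6 on neither, the last beside 3.45% of all genes. Over all genes, 0.0713% were well above background on neither CD44- array. Of the 17 genes that entered only through CD44- cells, 3 had a difference above 0 (Kcnip1, Kcnn1 and Kcnt1). A filter passed through 1 group favours genes that are brighter there, so no count over the 37 supports a direction. Over all 21050 genes tested, 81.6% were well above background on all 4 arrays, against 54.1% of the 37.

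**Figure D1:**
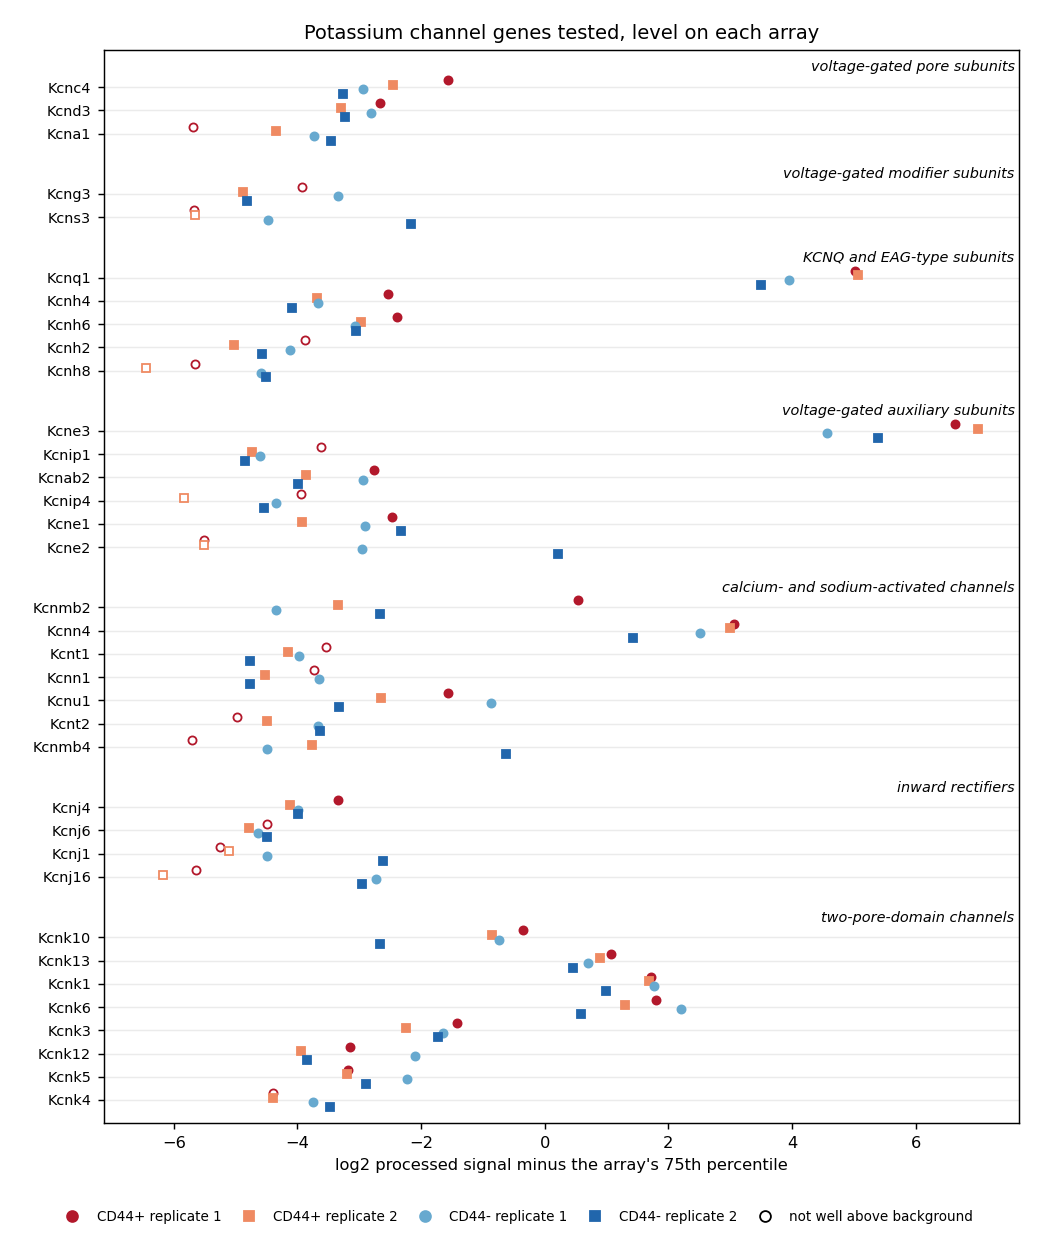
Level of 35 of the 37 tested potassium channel genes on each array, on the log2 scale relative to the array's 75th percentile, by channel class. Open symbols were not well above background. Kcne3 and Kcnq1 lie to the right with the CD44+ arrays above the CD44- arrays, and for Kcne2, Kcnj16, Kcns3 and Kcnj1 both CD44+ symbols are open. Symbols are shifted vertically by array so that they do not hide each other, and levels of different genes come from different probes and are not comparable.

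By limma, 1 of the 37 had an adjusted p (Benjamini-Hochberg) under 0.05, where 0.399% of all genes did. It was lower in CD44+ cells, as were 0.375% of all genes, and 0 were higher, beside 0.0238% of all genes. At an unadjusted p under 0.05 there were 10 of 37, beside 10.7% of all genes. Of these 2 were higher, beside 2.86%, and 8 lower, beside 7.88%. The CD44+ and CD44- values were fully apart for 17 of the 37, beside 39.7% of all genes. At least 2-fold apart without overlap were 4 genes higher and 8 lower in CD44+ cells, beside 3.8% and 9.64% of all genes. All 8 on the lower side were well above background on at most 1 CD44+ array. Among the 20 genes that cleared background everywhere, 4 were at least 2-fold higher without overlap and 0 lower, beside 4.34% and 4.28% of all such genes. The 4 were Kcne3, Kcnq1, Kcnc4 and Kcnn4. Those on the lower side included Kcne2, Kcnj16, Kcns3, Kcnj1, Kcnh8, Kcna1 and Kcnt2.

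The median log2 difference of the 37 was -0.01 and that of all genes 0.16. A difference above 0 was seen in 18 of the 37, beside 60.6% of all genes, and in 15 of the 20 on all arrays, beside 68.7% of such genes. Over those 20 the median was 0.35, against 0.24 for all such genes. Scaling each array to its median instead moves all differences up by 0.10, which is to be kept in mind for values near 0.

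**Figure D2:**
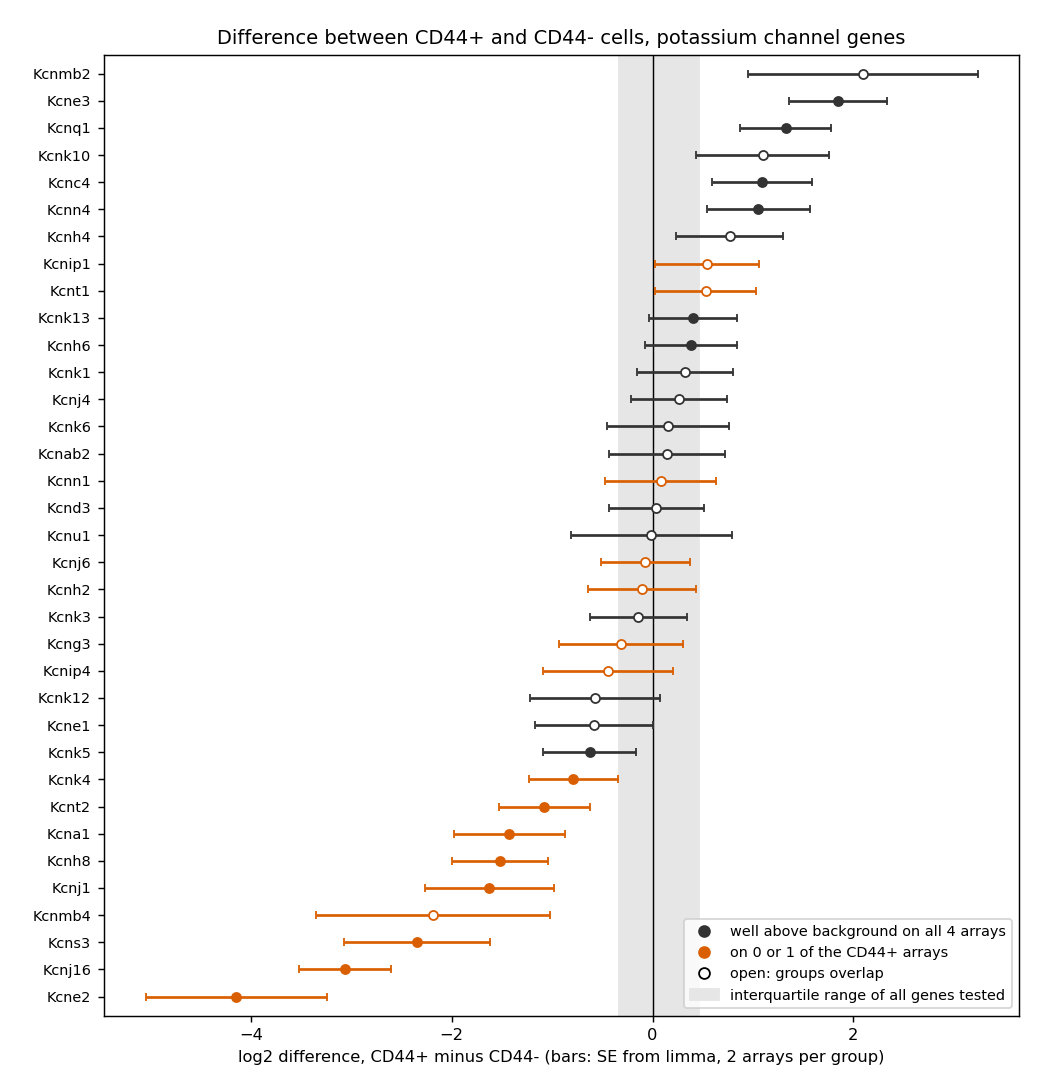
Log2 difference, CD44+ minus CD44-, of 35 of the 37 tested genes with the standard error from limma (2 arrays per group). Black points were well above background on all 4 arrays, orange points on 0 or 1 CD44+ array, open points mark groups that overlap, and the grey band spans the interquartile range of all genes tested, from -0.33 to 0.47. The orange points make up the low end, and Kcne3, Kcnq1, Kcnc4 and Kcnn4 are the filled black points past 1.

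Kcnq1, the pore subunit, had levels of 5.01 and 5.08 in CD44+ cells, against 3.95 and 3.49 in CD44- cells. The groups did not overlap, and the 2 CD44+ arrays lay close together. The log2 difference was 1.32 ± 0.45 (SE, n = 2 arrays per group), with an adjusted p of 0.299 by limma. Over 13 alternatives it ranged from 1.10 to 1.55 and passed in 0 of them. With the groups fully apart, leaving out 1 array could not change its sign, and neither could settings that refit the same values.

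Kcne3 had levels of 6.64 and 7.0 in CD44+ cells and 4.56 and 5.39 in CD44- cells, which are processed signals of 24360 and 63154 against 9573 and 22090. On the scaled values both CD44+ arrays lay above both CD44- arrays, while the unscaled signals of the dim first CD44+ array and the second CD44- array were close. The log2 difference was 1.85 ± 0.49 (SE, n = 2 arrays per group), with an adjusted p of 0.183 by limma. A second Kcne3 probe gave 4.42 and 5.01 in CD44+ cells against 2.39 and 3.38 in CD44- cells, a log2 difference of 1.83. Without each array in turn the difference of the first probe ranged from 1.43 to 2.26. It passed in 2 of 13 alternatives, and its adjusted p ranged from 0.00602 to 0.698.

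Kcne2 had levels of -5.51 on both CD44+ arrays, neither well above background, against -2.96 and 0.22 in CD44- cells. The CD44- arrays themselves were far apart, the second carrying the high value. Kcne2 was at least 7.56-fold lower in CD44+ cells, where the floor is, on each array, either its own signal or the weakest signal of any probe that was well above background, whichever was higher. This limit was 2.52-fold with the second CD44- array left out and 22.7-fold with the first left out, and 4.13-fold and 13.9-fold with the second and first CD44+ arrays left out. The adjusted p was 0.125 by limma and ranged from 1.71e-13 to 0.676 over 12 alternatives, of which it passed in 6. The log2 difference, fitted against background signal, was -4.14 with all arrays, -5.73 with the first CD44- array left out and -2.56 with the second left out.

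The acid pump subunits, which share the parietal cell with KCNE2, were on the arrays too. Atp4b had -2.65 and -3.15 in CD44+ cells, against 0.48 and 4.37 in CD44- cells, with its high value on the same second CD44- array (adjusted p = 0.107 by limma). Atp4a had -2.66 and -1.57 in CD44+ cells and -2.24 and 0.23 in CD44- cells, and the groups overlapped. Of 6 parietal markers 5 were tested, 1 of them above 0 and 4 below, with Slc26a7 not well above background on any array. The summed signal of the 6, in units of the array's 75th percentile, was 15.8 and 29.7 in CD44+ cells, against 15.1 and 37.3 in CD44- cells. Most of it on 3 of the arrays came from Clic6, a chloride channel protein, and without this gene the sums were 0.81 and 0.80 in CD44+ cells, against 2.37 and 22.2 in CD44- cells. The part of parietal cells in the Kcne2 values was not tested.

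Kcne1, the subunit that slows KCNQ1 in heart muscle, had -2.47 and -3.93 in CD44+ cells and -2.91 and -2.32 in CD44- cells, so the groups overlapped. Kcne4 was well above background on 1 CD44- array and was not tested. CFTR and the sodium-potassium-chloride cotransporter Slc12a2 are the chloride exit and entry steps that a KCNQ1 and KCNE3 channel serves in secretory epithelium. Cftr had 4.66 and 4.87 in CD44+ cells, against 1.48 and 3.13 in CD44- cells (adjusted p = 0.157 by limma). Slc12a2 had 1.33 and 2.56 in CD44+ cells, against 0.28 and 1.20 in CD44- cells (adjusted p = 0.551 by limma). Neither gene's groups overlapped, and neither passed. Cftr is also 1 of 4 mucous neck markers with a probe, all of which lay above 0, with 3 at least 2-fold higher in CD44+ cells without overlap and a median difference of 2.41. Their summed signal was 1603 and 1478 in CD44+ cells, against 864 and 470 in CD44- cells. Of the mast cell markers 7 were tested, all above 0, beside 60.6% of all genes. The 4 proteases Mcpt1, Mcpt2, Mcpt4 and Cma1 were at least 2-fold higher without overlap, and 1 of them, Mcpt1, was called. Kit, Tpsb2 and Fcer1a overlapped at differences of 0.06, 0.06 and 0.13, and Cpa3 was not tested. The summed signal of the mast cell markers was 10.6 and 15.0 in CD44+ cells, against 3.50 and 3.21 in CD44- cells. The part of either cell type in the Kcne3 and Kcnq1 values was not tested.

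**Figure D3:**
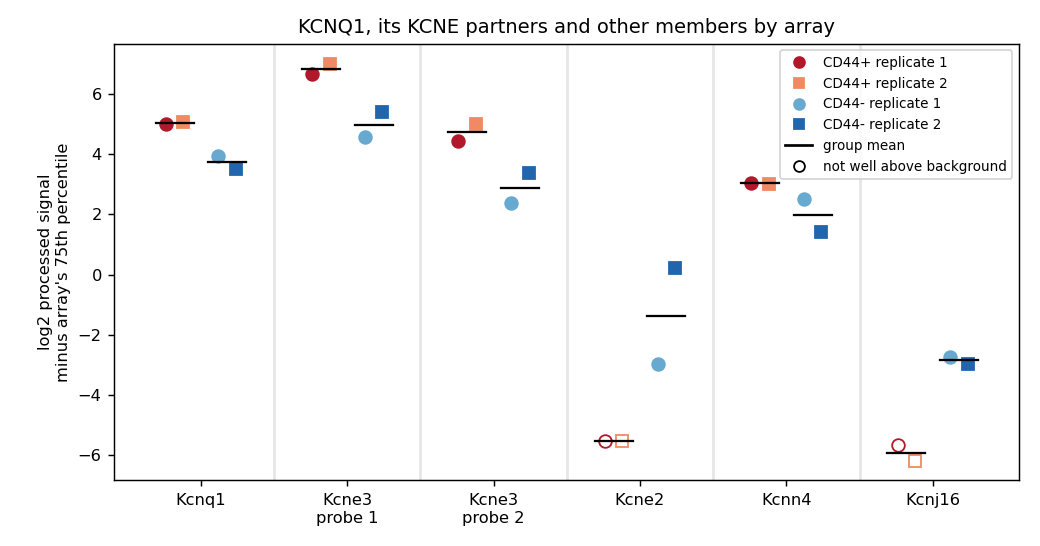
Level of each probe on the 4 arrays, on the log2 scale relative to the array's 75th percentile, with bars at group means. Both Kcne3 probes and Kcnq1 are higher on the CD44+ arrays, and Kcne2 and Kcnj16 have signal well above background on the CD44- arrays.

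Kcnn4, the calcium-activated channel of intermediate conductance found in secretory epithelia and blood cells, had 3.05 and 2.99 in CD44+ cells and 2.52 and 1.43 in CD44- cells. The groups did not overlap, and the lower CD44- value came from the second array. Its log2 difference, 1.05 ± 0.51 (SE, n = 2 arrays per group), had an adjusted p of 0.558 by limma. It was 0.51 with the second CD44- array left out, 1.60 with the first left out, and passed in 0 of 13 alternatives.

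Among other calcium- and sodium-activated channel genes, the auxiliary subunits of the large-conductance channel were the most uneven. Kcnmb2 had 0.53 and -3.35 in CD44+ cells, against -4.34 and -2.66 in CD44- cells. The first CD44+ array alone was high, the groups overlapped, and the difference of 2.09 ± 1.14 (SE, n = 2 arrays per group) did not pass (adjusted p = 0.638 by limma). Kcnmb4 had -5.71 and -3.77 in CD44+ cells and -4.49 and -0.62 in CD44- cells, with the second CD44- array high and the groups overlapping. Kcnma1, the pore they attach to, was not well above background on any array, and neither was Kcnmb1. Lrrc26, a further auxiliary subunit of that pore that epithelia use, had 5.83 and 5.61 in CD44+ cells and 5.93 and 4.40 in CD44- cells, which overlapped. The sodium-activated channel gene Kcnt2 had -4.98 and -4.49 in CD44+ cells, 1 of them well above background, against -3.67 and -3.64 in CD44- cells (adjusted p = 0.442 by limma). Its relative Kcnt1, the small-conductance channel gene Kcnn1 and the sperm channel gene Kcnu1 overlapped between groups, with differences of 0.53, 0.08 and -0.01. Kcnu1 was placed in this class by its name prefix, not by what opens its channel. Of the 11 genes of this class 7 were tested, 4 above 0 and 3 below, with 0 called.

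Kcnj16, an inward rectifier subunit that pairs with KCNJ10 and responds to pH, was the gene that passed. Its levels were -5.64 and -6.17 in CD44+ cells, neither well above background, against -2.72 and -2.96 in CD44- cells, both of which were. The 2 CD44- arrays lay close together, unlike those of Kcne2. It entered the test through the CD44- arrays only. Kcnj16 was at least 2.73-fold lower in CD44+ cells, a limit that was not itself tested. Its limit was 1.49-fold with the second CD44+ array left out and 5.0-fold with the first left out. The fitted log2 difference of -3.07 (adjusted p = 0.0435 by limma) is set against background signal and is no bound. The signal was low in both groups, with processed signals of 4.89 and 6.83 in CD44+ cells against 61.6 and 67.8 in CD44- cells. The other 2 probes of the gene were not well above background on any array, with differences of 0.44 and -0.05. Probe averaging, kept outlier spots and a replicate block refit nearly the same values, each at a difference of -3.07, so they test the call little. With these included, the call held in 7 of 12 alternatives. It was lost when CD44+ replicate 1 was left out (adjusted p = 0.215 by limma) or replicate 2 (0.231), with quantile normalization, with normexp background correction and with no filter on dim probes. With normexp the difference was -0.52, and the adjusted p ranged from 1.64e-07 to 0.992 over these alternatives.

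Its partner Kcnj10 was well above background on 1 array of each group and was not tested. Kcnj1, known as the potassium secretion channel of the kidney tubule, had -5.25 and -5.11 in CD44+ cells, neither well above background, against -4.50 and -2.61 in CD44- cells. The fitted log2 difference, set against background signal, was -1.62 (adjusted p = 0.396 by limma). Kcnj1 was at least 1.63-fold lower, with the second CD44- array high. No limit above 1 remained when that array or the second CD44+ array was left out. Kcnj4 and Kcnj6, both inward rectifiers of neurons, overlapped between groups, with differences of 0.26 and -0.07. A second probe of Kcnj4 had the opposite sign, at -0.26. Kcnj11, the pore of the ATP-sensitive channel that controls insulin release, and Kcnj15, a channel of parietal cells, were not well above background on any array. Abcc8, the sulfonylurea receptor that surrounds KCNJ11, had -1.88 and -2.13 in CD44+ cells, against -0.10 and -0.03 in CD44- cells. Its groups did not overlap (adjusted p = 0.134 by limma). In the inward rectifier class 8 of 13 genes were not well above background on any array.

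Kcns3, a silent subunit that modifies voltage-gated channels, had -5.67 and -5.66 in CD44+ cells, neither well above background, against -4.48 and -2.16 in CD44- cells. The fitted log2 difference, set against background signal, was -2.34 (adjusted p = 0.247 by limma). Kcns3 was at least 1.95-fold lower, with the second CD44- array high. Leaving out that array left no limit above 1, and leaving out the second CD44+ array gave a limit of 1.07-fold. Kcng3, another silent subunit, overlapped at a difference of -0.31, and the remaining 6 of the 8 modifier genes were not tested.

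Kcna1, a low-threshold neuronal channel, had -5.68 and -4.35 in CD44+ cells, against -3.73 and -3.46 in CD44- cells (adjusted p = 0.382 by limma). Kcnc4, a fast-gating channel, had -1.57 and -2.45 in CD44+ cells, against -2.93 and -3.27 in CD44- cells. Its groups did not overlap, and the difference was 1.09 ± 0.50 (SE, n = 2 arrays per group), with an adjusted p of 0.503 by limma. It was 0.65 without CD44+ replicate 1. Kcnd3, a channel of transient outward current, differed by 0.04 ± 0.47, and the auxiliary genes Kcnip1, Kcnip4 and Kcnab2 overlapped between groups, at 0.54, -0.44 and 0.15. Of the 13 voltage-gated pore genes 5 were tested and 3 were not well above background on any array.

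Of the 13 KCNQ and EAG-type genes 5 were tested, and Kcnq3 and Kcnq5, other pores of the KCNQ family, were not well above background on any array. Kcnh2, which encodes the repolarizing channel of heart muscle, had -3.87 and -5.03 in CD44+ cells and -4.13 and -4.57 in CD44- cells. Its difference of -0.10 ± 0.53 (SE, n = 2 arrays per group) changed sign in 5 of 12 alternatives. Kcnh6, of the same branch, differed by 0.38 ± 0.46 and did not overlap. Kcnh4, another EAG-type gene, overlapped at a difference of 0.77. Kcnh8 was below the mark for well above background on both CD44+ arrays and had -4.58 and -4.51 in CD44- cells, which gave no lower limit above 1.

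Two-pore-domain genes, which carry the resting leak current, were the most widely detected class, with 8 of 9 tested. Of these 8, 0 were at least 2-fold apart without overlap, beside 13.4% of all genes, and so few genes cannot be set apart from that share. Kcnk1 had 1.71 and 1.68 in CD44+ cells and 1.77 and 0.98 in CD44- cells, a difference of 0.32 ± 0.48 (SE, n = 2 arrays per group) that turned to -0.08 without CD44- replicate 2. Kcnk13 had 1.07 and 0.90 in CD44+ cells against 0.70 and 0.46 in CD44- cells, which did not overlap, with a difference of 0.40 ± 0.44. Kcnk6, a relative of Kcnk1, overlapped at 1.81 and 1.30 in CD44+ cells and 2.21 and 0.59 in CD44- cells. Kcnk10, a channel opened by stretch and lipids, had -0.35 and -0.86 in CD44+ cells and -0.74 and -2.67 in CD44- cells, and the second CD44- array alone was low. Kcnk5, an alkali-sensitive channel of epithelia, had -3.18 and -3.19 in CD44+ cells against -2.24 and -2.88 in CD44- cells, a difference of -0.62 ± 0.46. Kcnk4 differed by -0.79 ± 0.44 without overlap but was well above background on 1 CD44+ array only, and Kcnk12 and Kcnk3 overlapped at -0.57 and -0.14. A second probe of Kcnk3 had the opposite sign. Of the 20 genes on all 4 arrays, Kcnk5 alone was lower in CD44+ cells without overlap.

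The 41 genes that were not tested included 13 that were well above background on some array, 8 of them on CD44- arrays only: Kcna4, Kcna5, Kcnd2, Kcne4, Kcnf1, Kcnh1, Kcnh5 and Kcnip3. Kcnc1 and Kcns2 were so on 1 CD44+ array only, and Kcnc2, Kcnj10 and Kcnn2 on 1 array of each group. Kcnip3, a calcium-binding partner of Kcnd channels, reached that mark on both CD44- arrays, but with different probes. For the 28 others, which include Kcnj2, Kcnj3 and Kcnj5 of the heart and Kcna3 of lymphocytes, a low level cannot be told from a probe that works poorly.

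The 2 CD44- arrays differed in some of these genes. Signal was at least 2-fold higher on the second than on the first for 6 of the 37 genes, beside 10.9% of all genes, and at least 2-fold lower for 8, beside 9.32%. Those higher on the second included Kcne2, Kcnmb4, Kcns3, Kcnj1 and Kcnmb2. The genes lower on the second were Kcnu1, Kcnk10, Kcnk12, Kcnk6, Kcng3, Kcnn1, Kcnn4 and Kcnab2. Endothelial markers had summed signals of 1.58 and 2.20 in CD44+ cells, against 6.80 and 119.5 in CD44- cells, in units of the 75th percentile, over 10 genes. Fibroblast markers, 8 genes, had 7.78 and 42.9 in CD44+ and 68.3 and 456 in CD44- cells. Smooth muscle and pericyte markers, 9 genes with Des not well above background anywhere, had 9.37 and 12.2 in CD44+ and 13.7 and 63.0 in CD44- cells.

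Endocrine markers, 15 genes, were far higher on both CD44- arrays. Their summed signal was 4.36 and 6.10 in CD44+ cells, against 369 and 793 in CD44- cells. Of the 14 tested all lay below 0 and 7 passed over all genes. Neural and glial markers, 8 genes of which 1 was not well above background anywhere, had 19.8 and 30.5 in CD44+ cells and 14.2 and 20.4 in CD44- cells. Nearly all of it came from S100b, and without this gene the sums were 1.18 and 0.756 in CD44+ cells, against 1.37 and 2.93 in CD44- cells. Its neuronal members Elavl4 and Uchl1 differed by -2.07 and -3.34 without overlap and did not pass (adjusted p = 0.145 and 0.113 by limma). Squamous markers, 8 genes, had 17.6 and 3.05 in CD44+ cells, against 212 and 358 in CD44- cells. Of the 7 squamous markers tested, 5 lay below 0 and 2 above, Ivl at 1.60 without overlap and Lor at 0.19 with overlap. Epithelial markers, 5 genes, had 2083 and 1452 in CD44+ cells and 1943 and 820 in CD44- cells, with Epcam at 4.69 and 4.66 against 3.34 and 2.70 on the log2 scale. Tuft cell markers, 7 genes, had 5.00 and 6.83 in CD44+ cells, against 11.8 and 24.7 in CD44- cells. Of these 5 lay below 0 and 2 above, and Il25 passed, lower in CD44+ cells. Surface mucous markers, 4 genes, had 2783 and 1326 in CD44+ cells and 1758 and 1070 in CD44- cells. Leukocyte markers, 7 genes, had 13.2 and 2.64 in CD44+ cells and 19.0 and 23.0 in CD44- cells. Of these 4 lay above 0 and 3 below, and Cd53 passed, higher in CD44+ cells. Sums are dominated by the brightest probes. The part of any of these cell types in the potassium channel values was not tested.

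**Figure D4:**
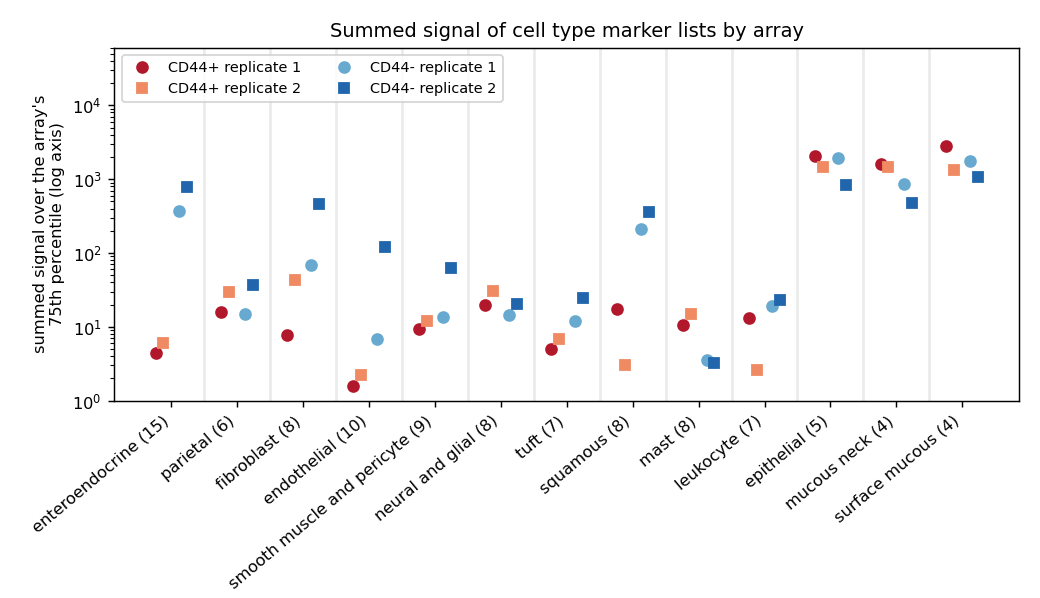
Summed signal of the cell type marker lists on each array, on a log axis, in units of the array's 75th percentile, with the number of genes that had a probe in brackets. Endocrine and squamous markers are higher on both CD44- arrays, endothelial, fibroblast and smooth muscle markers are highest on the second CD44- array, and epithelial markers lie between 820 and 2083 on all 4.

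Other genes of potassium handling and excitability gave 0 calls. The partner list had 7 of 12 genes tested, 4 above 0 and 3 below, with a median of 0.01, beside 0.16 over all genes. Besides Abcc8 given above, Akap9, an anchoring protein of KCNQ1, differed by -0.58 and Dpp10, an auxiliary subunit of Kcnd channels, by 0.52, both without overlap. Abcc9, the receptor of vascular ATP-sensitive channels, had -5.66 and -3.63 in CD44+ cells and -4.41 and -0.49 in CD44- cells and overlapped. Pumps and cotransporters had 17 of 23 tested, 7 above 0 and 10 below, with a median of -0.31. Besides Atp4b and Slc12a2 given above, the sodium pump regulator Fxyd4 had -3.25 and -5.69 in CD44+ cells, against 0.00 and 0.49 in CD44- cells (adjusted p = 0.0571 by limma). Fxyd1 had -5.68 and -5.11 in CD44+ cells, neither well above background, against -4.05 and -1.79 in CD44- cells. It was at least 2.54-fold lower in CD44+ cells, with limits of 1.16-fold without the second CD44- array and 1.41-fold without the second CD44+ array. Fxyd6 had 0.11 and 1.24 in CD44+ cells against 1.66 and 3.84 in CD44- cells.

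Calcium, sodium and pacemaker channels of excitable cells had 18 of 36 tested, 8 above 0 and 10 below, with a median of -0.09. The smallest adjusted p among them was 0.187, for the calcium channel subunit Cacna2d3, which had -5.65 and -6.13 in CD44+ cells, against -4.42 and -2.67 in CD44- cells. It was at least 1.67-fold lower in CD44+ cells, and no limit above 1 remained when the second CD44- or the second CD44+ array was left out. Cacnb4 had -5.64 and -5.11 in CD44+ cells against -4.08 and -3.34 in CD44- cells. Cacna1g, a low-threshold calcium channel, had -5.68 and -4.77 in CD44+ cells against -4.15 and -2.38 in CD44- cells, and Hcn3 had -5.65 and -5.01 against -4.46 and -3.42. In each of these 3 the groups did not overlap, and 1 of the 2 CD44+ arrays was well above background.

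**Figure D5:**
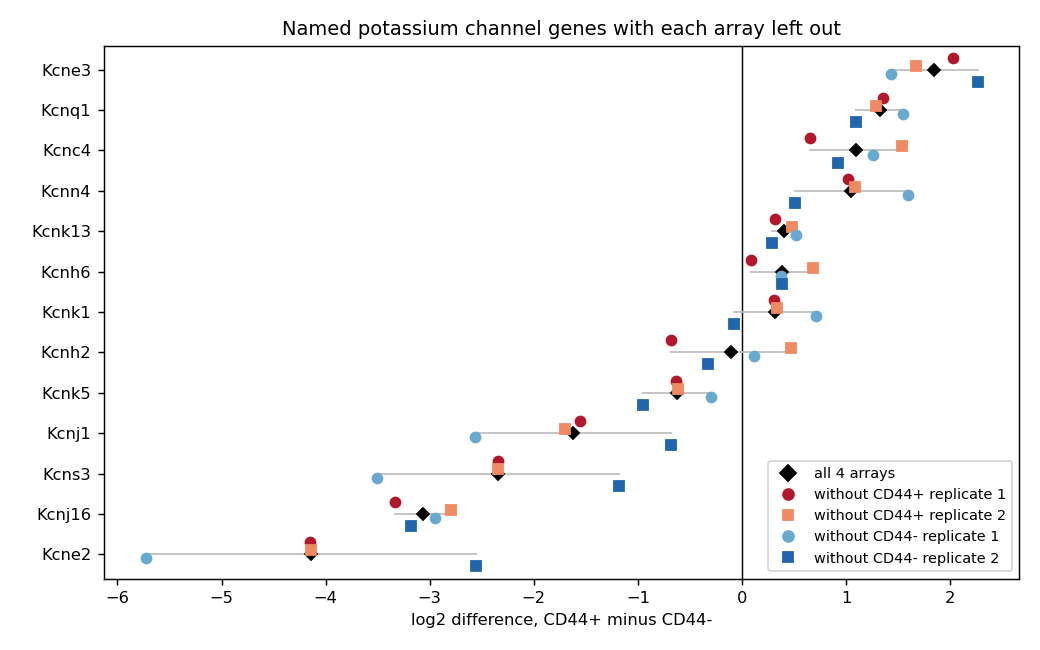
Log2 difference, CD44+ minus CD44-, of named potassium channel genes that were tested, with all 4 arrays (diamonds) and with each array left out. Kcnq1 and Kcnj16 move little, from 1.10 to 1.55 and from -3.33 to -2.80, whereas Kcne2, Kcns3 and Kcnj1 depend on which CD44- array is kept, and Kcnk1 and Kcnh2 cross 0. Symbols are shifted vertically by array.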

How the data were processed

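RNA of 4 samples was measured on 4 one-colour arrays of 1 slide, scanned together. Per the labels' protocols it was amplified from little total RNA before labelling, which can distort ratios and lose rare transcripts. The processed signal deposited by the authors is a background-subtracted intensity, made with Agilent Feature Extraction, whose version is 10.1.1.1 per the file headers and 9.5 per the submitters' processing notes. The deposited flags mark spots as outliers or well above background. The value table the authors deposited holds a linear ratio with column medians of 0.853 and 0.989 for CD44+ and 0.928 and 0.739 for CD44-. Centred per gene on the log2 scale, it correlated with the scanner signal at 0.997 or more on each array, so the direction is the same, while its scaling and centring are not stated. It served as an alternative.

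Control and outlier spots were left out and spots of a probe averaged on the log2 scale, and each array's 75th percentile was subtracted. Accessions were matched without version to RefSeq genes (GRCm38.p6), naming 24375 of 41174 probes. Probes well above background on both arrays of a group were kept, the brightest per gene was used, and 21050 genes were tested with limma 3.58.1 in R 4.3.3, adjusted by Benjamini-Hochberg. Of 5 channel genes with several passing probes, 3 had probes of opposite sign. Normexp used spot medians, and spot means were not used here. The fit was tested on simulated data with planted effects larger than nearly all channel gene differences, so recovery at those smaller sizes was not tested. The members, lists and rule for named genes (called genes, the largest differences on all arrays, the largest lower limits, 13 genes of known roles, and up to 4 per other list) were chosen with earlier results of these data known. Other genes named with values, such as Kcne1, Kcnmb2, Kcnmb4, Kcnk6, Kcnk10, Kcnh8, Kcna1, Lrrc26 and Slc12a2, were chosen after their values were seen. Some genes are counted but not reported here.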

Additional observations from a re-analysis of the deposited data

How the results depend on the processing

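With 2 arrays per group, calls depended on scaling and on the array left out. Of all genes 84 passed limma's test, and 740 with median scaling, 6 with quantile normalization, 539 with normexp, 747 in the authors' value table, 24 with no filter on dim probes, and between 2 and 1561 without 1 array. Of the potassium channel genes 1 passed, and 3 with median scaling, 0 with quantile normalization (8 at an unadjusted p under 0.05), 2 with normexp, 3 in the authors' value table, 0 with no filter (8 unadjusted), 0 with the filter for all 4 arrays (3 unadjusted), and between 0 and 7 without 1 array. The count at least 2-fold apart without overlap was 12, but 3 with normexp and 4 with the filter for all 4 arrays, which leaves 21 genes to test. The median difference was -0.01, 0.38 with that filter, and from -0.40 to 0.41 without 1 array. The prior degrees of freedom added by the variance model changed between these fits too, from 3.51 upward. Beyond the construction of the filters, the cause was not tested. Probe averaging and kept outlier spots changed none of the 4 summaries by more than 1.5 times or 1 SD.

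Replicates share numbers in the titles only. Same-numbered samples deviated together with a correlation of 0.35 across genes. With a replicate block 1822 genes and 9 potassium channel genes passed. All arrays share 1 slide and scan, so no batch block was fitted. Dim probes limit 17 of the 37 tested genes on the CD44+ side. Lower limits with an array left out, and marker sums without the brightest gene, were added after seeing the data.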
